A study of Bos taurus with 9 samples.

Results

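The genes described here encode proteins that the ruminant trophoblast secretes, and they were chosen by symbol from the deposited table: the interferon tau genes, the pregnancy-associated glycoproteins (PAG), the trophoblast Kunitz domain proteins (TKDP), placental lactogen, the prolactin-related proteins (PRP) and *SSLP1*. The rule took 37 of the 21512 genes listed, of which 5 are interferon tau genes, 19 are PAG genes, 3 are TKDP genes and 8 are PRP genes, with *CSH2* as the only placental lactogen gene and *SSLP1* as a family of its own. The rule itself reads symbols and no measured value, although the families were picked with earlier results of these data known. The row *PAG1* was left out, since that symbol is also used for an unrelated adaptor protein of the plasma membrane.

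Bovine blastocysts were produced *in vitro*, frozen individually at day (D) 8 and sequenced as 1 library per embryo. The 5 WT libraries, WT_1 to WT_5, come from embryos whose oocytes had been injected with *Cas9* mRNA alone. The 4 *TEAD4* KO libraries, TE_1 to TE_4 (*TEAD4*-/-), come from embryos whose oocytes had received the same mRNA with a guide RNA against the fourth exon of *TEAD4*, and in which genotyping of the embryo's own DNA found only frame-disrupting alleles. Injection, *Cas9* and the sire were thus common to both genotypes. The guide RNA was given to KO embryos alone, so effects of guide and cutting cannot be told apart from loss of TEAD4. Each library holds the whole blastocyst, inner cell mass and trophectoderm (TE) together, so fewer cells of a type and less RNA per cell cannot be told apart. Embryos that carry several edited alleles cannot be recognised from these values, and the sex of an embryo is not stated.

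Interferon tau is the signal by which the conceptus of ruminants announces itself to the mother. It is a type I interferon made by the mononucleate trophectoderm from the blastocyst stage on, and it acts on the endometrium to keep the corpus luteum from regressing. PAGs are secreted relatives of the aspartic proteinases. The ancient members of the family are made throughout the trophoblast, whereas the modern members belong to the binucleate cells that appear around implantation. The TKDPs carry a proteinase inhibitor domain of the Kunitz type and are secreted in the same period as interferon tau. Placental lactogen and the PRPs are relatives of prolactin and growth hormone and are typical of binucleate cells. *SSLP1*, for which RefSeq gives the synonym *SOLD1*, encodes a small secreted protein with a Ly-6 domain.

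Abundances are given in TPM, a transcript abundance that corrects for transcript length, so that levels can be compared between genes, and each library sums to 1000000. Read numbers cannot be recovered from TPM. The paper gives their range over the samples but not the number of each library, so the depth of low values is unknown. A gene without signal is described as listed at 0. Between 14776 and 16678 genes were above 0 in each library. *TEAD4* transcripts were at 18.0 to 54.3 TPM in WT and at 12.5 to 42.8 TPM in KO libraries, so the genotype cannot be read from them. All 8 trophectoderm markers examined were found, with a summed level of 4019 to 17927 TPM in WT and 6586 to 12382 TPM in KO libraries, most of it from the keratins *KRT8* and *KRT18*. Of 5 markers of leukocytes and blood, *PTPRC* and *HBB* were listed at 0 in every library, although *HBA* was at 54.1 to 314 TPM. The 8 markers of cumulus and granulosa cells summed to 15.8 to 28.4 TPM in WT and 3.01 to 27.2 TPM in KO libraries, led by *FSHR*. TE_4 stood apart with the lowest sum of these markers and of the hypoblast markers given below, and values without it are given beside the members and list genes with a low unadjusted p. WT_1 stood apart in some other markers. The oocyte marker *OOSP2* was at 37.5 TPM there and at most 1.62 TPM elsewhere, and *H1-8* at 4.11 and at most 0.313 TPM. *BMP15* was at 1.42 TPM in WT_1 alone, whereas *ZP3* was lower there (5.43 TPM) than in the other WT embryos. *NANOG* was at 0.127 TPM in WT_1 and 29.3 to 262 TPM in the other WT embryos, and *PDGFRA* at 0.0277 and 5.43 to 16.1 TPM. *NANOG* was also low in TE_2 (2.70 TPM) and TE_3 (3.55 TPM). The oocyte marker *GDF9* was at 1.38 TPM in WT_1 and 1.41 TPM in TE_1. *GATA4* (1.43 TPM) and *APOA1* (961 TPM) of WT_1 lay within the range of the other WT embryos. The cause of the WT_1 values was not tested.

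Of the 37 genes, 19 were above 0 TPM in at least 1 embryo, 18 were listed at 0 in all 9, and 7 were above 0 in every embryo (*IFNT*, *IFNT2*, *IFNT3*, *IFN-tau-c1*, *PAG2*, *TKDP1* and *SSLP1*). WT libraries held 13, 11, 16, 15 and 14 of them above 0 in WT_1 to WT_5, and KO libraries 14, 11, 14 and 13 in TE_1 to TE_4, so the numbers overlapped. Of all 21512 genes listed, 18549 were above 0 in at least 1 embryo. The families differed in how much of them was found. All 5 interferon tau genes and all 3 TKDP genes were above 0 somewhere, against 9 of the 19 PAG genes, 1 of the 8 PRP genes and not the placental lactogen gene *CSH2*.

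**Figure D1:**
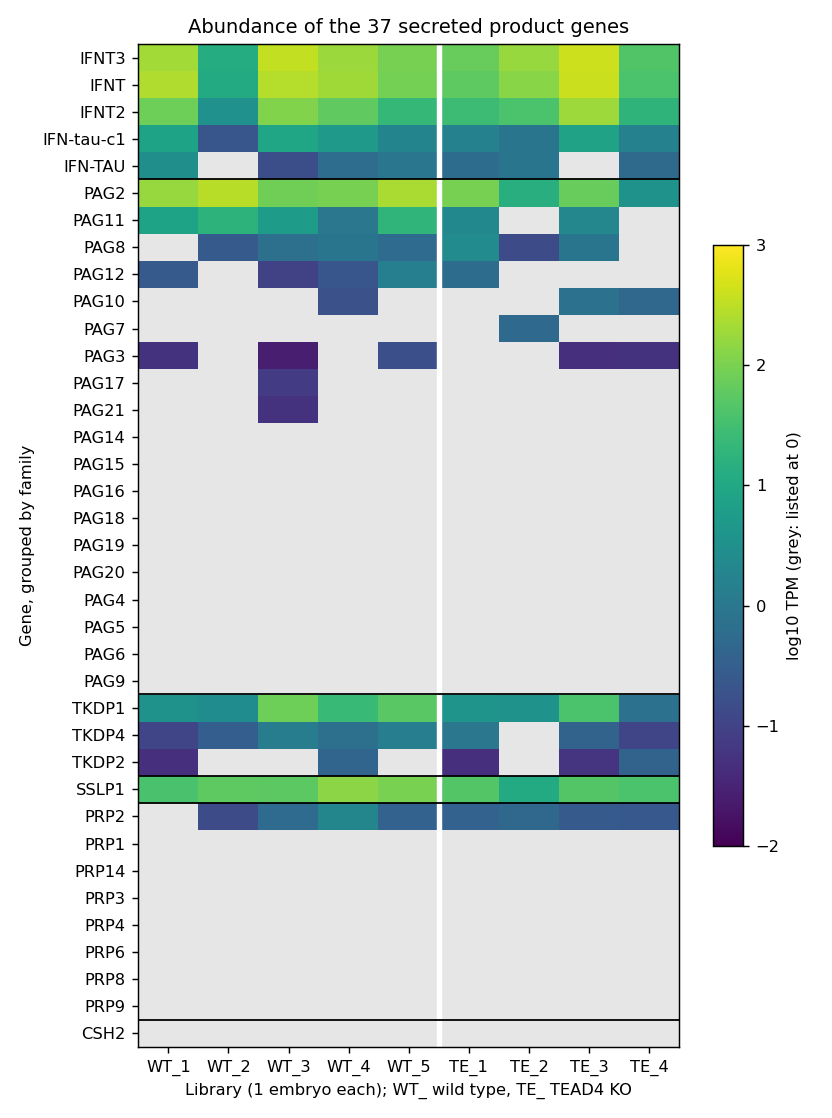
Each row is 1 of the 37 genes and each column 1 embryo (WT_1 to WT_5 and *TEAD4* KO TE_1 to TE_4); colour gives log10 TPM and grey marks genes listed at 0. The 18 wholly grey rows are PAG, PRP and placental lactogen genes, and the brightest rows are *IFNT3*, *IFNT*, *IFNT2*, *PAG2*, *SSLP1* and *TKDP1*.

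Together the 37 genes made up 0.0402% to 0.0967% of a WT library and 0.0147% to 0.116% of a KO library. By mean level over the 9 embryos the order was *IFNT3* (170 TPM), *IFNT* (161 TPM), *PAG2* (118 TPM), *IFNT2* (60.1 TPM), *SSLP1* (58.6 TPM), *TKDP1* (23.2 TPM), *PAG11* (6.13 TPM) and *IFN-tau-c1* (3.97 TPM), and the other genes averaged below 1 TPM. Neighbours in this order overlapped widely between embryos. *IFNT3* exceeded 64.8% of the genes above 0 in the library where it ranked lowest, WT_2, and 97.0% in the library where it ranked highest, TE_3.

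The genotypes were set against each other with limma on log2(TPM + 1), in a model fitted to all genes with a median above 0.1 TPM, with Benjamini-Hochberg adjustment over all 14599 of them. Fold changes are KO minus WT on that scale, which understates the change of genes near 1 TPM. This filter was passed by 12 of the 37 genes: the 5 interferon tau genes, *PAG2*, *PAG11*, *PAG8*, *TKDP1*, *TKDP4*, *SSLP1* and *PRP2*. None of the 12 reached an adjusted p-value under 0.05 with an absolute log2 fold change above 1, where 0.0205% of all tested genes did. The paper, with DESeq2 on counts, called more genes than the 3 found here, so a gene not called here may still differ. Before adjustment, 3 of the 12 had a p-value under 0.05, *PAG2*, *PAG11* and *SSLP1*, each with the lower mean in KO. Among all tested genes, 3.83% had such a p-value with a lower mean in KO and 2.07% with a higher one. The median log2 change was -0.29 over the 12 genes and -0.046 over all tested genes. A lower mean in KO was found in 9 of the 12, against 55.8% of all tested genes. The 12 are not independent, since 5 are interferon tau rows that may share reads. The direction reversed for 7 of them in at least 1 alternative fit. In none of the 12 tested genes did the values of the genotypes separate completely. Of all tested genes, 1.23% separated with KO below WT and 0.801% with KO above WT. At such shares, 12 genes are too few for a conclusion to be drawn from this.

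**Figure D2:**
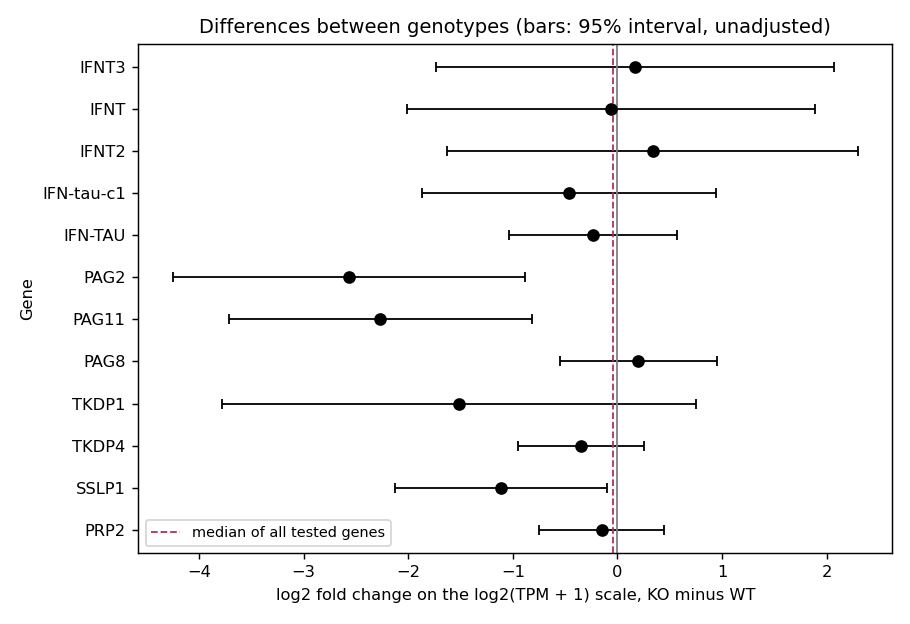
Points are log2 fold changes (KO minus WT, on the log2(TPM + 1) scale) of the 12 tested genes with unadjusted 95% intervals from limma (5 WT and 4 KO embryos); the dashed line is the median of all tested genes, -0.046. The intervals of *PAG2*, *PAG11* and *SSLP1* lie below 0, and those of the other 9 genes include 0.

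Interferon tau transcripts were abundant in both genotypes and varied widely between embryos, with no difference between WT and KO beyond that spread. *IFNT3* measured 206, 12.2, 343, 177 and 92.8 TPM from WT_1 through WT_5. The KO values, from TE_1 through TE_4, were 69.9, 169, 414 and 44.7 TPM. The lowest value of all belonged to WT_2 and the highest to TE_3, and the genotypes overlapped over most of their range. WT embryos averaged 166 ± 124 TPM (SD, n = 5) and KO embryos 175 ± 169 TPM (SD, n = 4), which is a KO-minus-WT log2 difference of 0.17 (95% interval -1.73 to 2.07, adjusted p = 0.994 from limma). This interval covers large changes in either direction, so the data cannot show that the genotypes are alike. The difference was -0.59 without WT_2 and 0.64 without TE_4.

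The other 2 abundant rows followed the same embryos. *IFNT* measured 254, 11.6, 276, 197 and 89.0 TPM from WT_1 through WT_5, against 57.7, 132, 397 and 37.7 TPM from TE_1 through TE_4 (log2 change -0.065, 95% interval -2.02 to 1.89). *IFNT2* measured 78.7, 3.32, 111, 59.6 and 21.7 TPM from WT_1 through WT_5, against 27.3, 38.1, 183 and 17.9 TPM from TE_1 through TE_4 (log2 fold change 0.34, 95% interval -1.63 to 2.30). In each of these rows WT_2 was lowest and TE_3 highest. *IFN-tau-c1* was much scarcer, at 0.217 to 9.15 TPM in WT and 0.885 to 7.74 TPM in KO embryos, and *IFN-TAU* reached 3.15 TPM in WT_1 and was listed at 0 in WT_2 and TE_3.

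The make-up of the family varied much less between embryos than its amount. *IFNT3* gave 37.5% to 49.6% of the summed interferon tau TPM in the 9 embryos, *IFNT* 36.7% to 46.1% and *IFNT2* 10.5% to 18.3%. Interferon tau genes are near-identical copies, and RefSeq lists *IFNT* as a synonym of 2 symbols, *IFNT2* and *IFNT3*, so how pseudoalignment shared reads between these rows is not known and values of single copies are uncertain. The sum over the 5 genes came to 550, 27.4, 739, 438 and 206 TPM from WT_1 through WT_5, against 157, 341, 1002 and 102 TPM from TE_1 through TE_4. It averaged 392 ± 281 TPM (SD, n = 5) over the WT and 401 ± 414 TPM (SD, n = 4) over the KO embryos. The highest sum was 27.0 times the lowest among WT embryos and 9.78 times among KO embryos. The SD of log2(TPM + 1) of *IFNT3* between WT embryos was 1.83, above that of 99.5% of all tested genes and above 99.0% of the 6370 tested genes with a WT mean over 10 TPM.

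**Figure D3:**
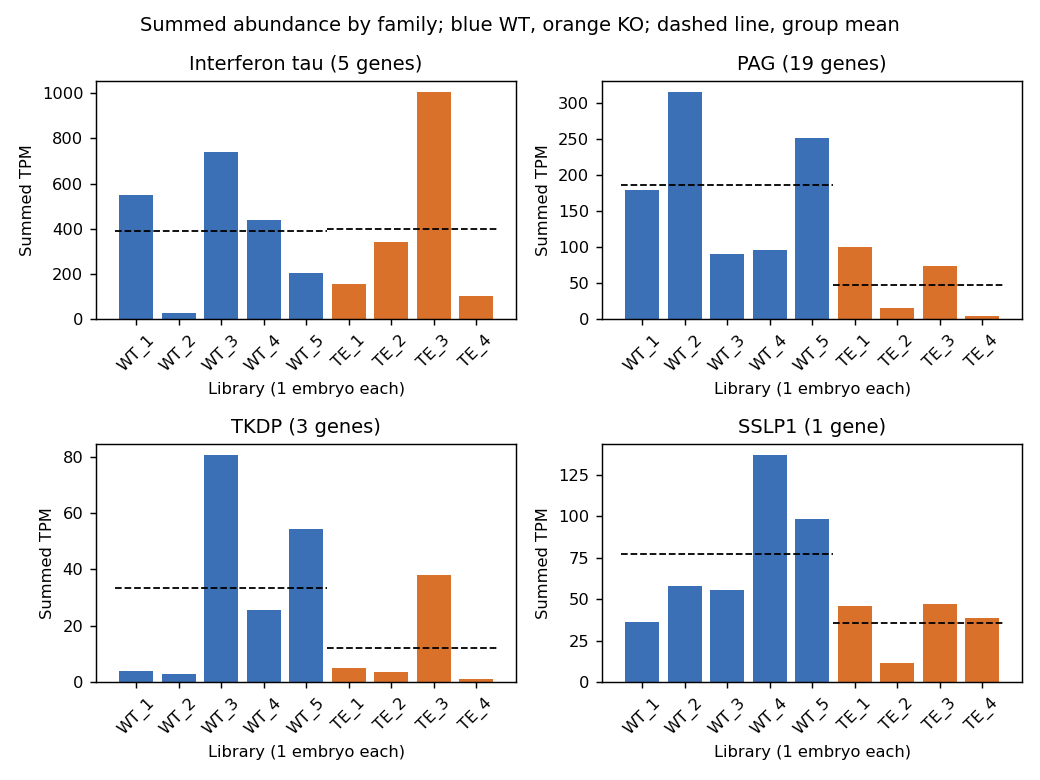
Bars give summed TPM per embryo (blue WT, orange KO) for interferon tau, PAG, TKDP and *SSLP1*, with the group mean dashed. Mean interferon tau was 392 TPM in WT and 401 TPM in KO, whereas mean PAG was 186 TPM in WT and 48.3 TPM in KO.

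PAG transcripts were nearly all *PAG2*, an ancient member, and its mean was lower in KO blastocysts. *PAG2* measured 170, 296, 84.1, 93.7 and 231 TPM from WT_1 through WT_5. The KO values, from TE_1 through TE_4, were 94.95, 14.5, 70.0 and 3.60 TPM. TE_2, TE_3 and TE_4 were below every WT embryo, and TE_1 lay just above the lowest WT embryos, WT_3 and WT_4. The SD of log2(TPM + 1) of *PAG2* between KO embryos was 2.04, above that of 99.4% of all tested genes, and between WT embryos 0.79. WT embryos averaged 175 ± 90.5 TPM (SD, n = 5) and KO embryos 45.8 ± 43.8 TPM (SD, n = 4), a ratio of 3.82. The log2 change was -2.57 (SE 0.77, 95% interval -4.25 to -0.89), with an unadjusted p of 0.00608 and an adjusted p of 0.618 from limma (exact permutation test, two-sided, p = 0.0476, where the smallest possible p is 0.0159). With the adjustment, the difference missed the threshold. Without TE_4, the lowest embryo, the log2 change was -1.73. With 1 embryo left out in turn, the exact permutation p ranged from 0.0357 to 0.107, and it was under 0.05 without TE_1 alone. Fewer embryos raise the smallest possible p, to 0.0286 without a WT and 0.0357 without a KO embryo. Only that smallest value then lies under 0.05, so these p-values cannot show dependence on a single embryo.

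*PAG11*, another ancient member, had the same direction at a lower level. It measured 8.01, 17.3, 5.80, 0.951 and 18.9 TPM from WT_1 through WT_5. In KO embryos it was at 2.15 TPM in TE_1 and 2.06 TPM in TE_3 and was listed at 0 in TE_2 and TE_4, the 2 embryos with the least *PAG2*. WT_4 was below TE_1 and TE_3, and the other 4 WT embryos were above every KO embryo. The log2 change was -2.27 (SE 0.66, 95% interval -3.71 to -0.82, adjusted p = 0.611 from limma). The exact permutation test gave p = 0.0476 (two-sided), and the log2 change was -1.99 without TE_4. With 1 embryo left out in turn, that p ranged from 0.0286 to 0.107 and was under 0.05 without WT_4 alone, with the same limit from fewer embryos as for *PAG2*. With a pseudocount of 0.1 TPM in place of 1, the log2 fold change of *PAG11* was -3.90, and the 2 KO embryos listed at 0 enter it.

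The remaining ancient members were scarce. *PAG8* was highest in TE_1, at 2.55 TPM, at most 0.877 TPM in WT embryos and listed at 0 in WT_1 and TE_4 (log2 fold change 0.20, 95% interval -0.55 to 0.95). *PAG12* was above 0 in 4 WT embryos, with a maximum of 1.43 TPM in WT_5, and in TE_1 at 0.593 TPM. *PAG10* was above 0 in WT_4, TE_3 and TE_4, at 0.176, 0.721 and 0.461 TPM. Thus all 5 ancient members in the table were above 0 in at least 1 embryo, against 4 of the 14 modern members. Of those, *PAG3* was above 0 in 5 embryos at no more than 0.166 TPM, *PAG7* in TE_2 alone at 0.508 TPM, and *PAG17* and *PAG21* in WT_3 alone at 0.0766 and 0.0528 TPM. *PAG4*, *PAG5*, *PAG6*, *PAG9*, *PAG14*, *PAG15*, *PAG16*, *PAG18*, *PAG19* and *PAG20* were listed at 0 in all 9 embryos. PAG genes resemble each other in sequence, so a low value of a single member is uncertain.

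Summed over the 19 genes, PAG transcripts measured 178, 314, 90.8, 95.9 and 252 TPM from WT_1 through WT_5, against 100, 15.2, 73.7 and 4.12 TPM from TE_1 through TE_4, of which *PAG2* made up 87.5% to 97.7%. The groups overlapped through TE_1, which was above WT_3 and WT_4. Of the 8 trophectoderm markers, 5 had a lower and 3 a higher mean in KO embryos. Those lower were *KRT8* (average 7537 TPM for WT, 5646 TPM for KO), *KRT18* (3721 and 2849 TPM), *GATA3* (32.1 and 31.5 TPM), *TFAP2A* (8.28 and 2.83 TPM) and *ELF5* (0.778 and 0.669 TPM). *CDX2* (32.2 and 36.0 TPM), *GATA2* (67.2 and 69.0 TPM) and *TFAP2C* (116 and 135 TPM) had the higher mean in KO. TE_4, the embryo with the least *PAG2*, was the lowest of all 9 in 4 of the 8, *GATA3* (11.4 TPM), *GATA2* (23.7 TPM), *TFAP2A* (0.321 TPM) and *ELF5* (0.0388 TPM), whereas TE_2, with the next lowest *PAG2*, was the highest in *CDX2* (55.2 TPM) and *TFAP2C* (214 TPM). The 6 hypoblast markers were all found, with a summed level of 939 to 1733 TPM in WT and 187 to 1882 TPM in KO embryos, most of it from *APOA1*, and 5 of them had a lower mean in KO. *APOA1* was lowest in TE_4 (88.8 TPM) and next lowest in TE_2 (398 TPM). *GATA4* was lower in every KO (0.367 to 0.957 TPM) than in every WT embryo (1.09 to 1.75 TPM). Such a separation was found in 1.23% of all tested genes. *SOX17* was lowest in TE_2 (1.91 TPM), followed by TE_4 and WT_1 (both 2.52 TPM). *PDGFRA* was at 0.0277 to 16.1 TPM in WT and 2.44 to 7.80 TPM in KO embryos. *GATA6* was highest in TE_2 (146 TPM). *RSPO3*, the 1 marker with the higher mean in KO, was highest in TE_4 (18.4 TPM). The part of cell-type content in the *PAG2* values was not tested.

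**Figure D4:**
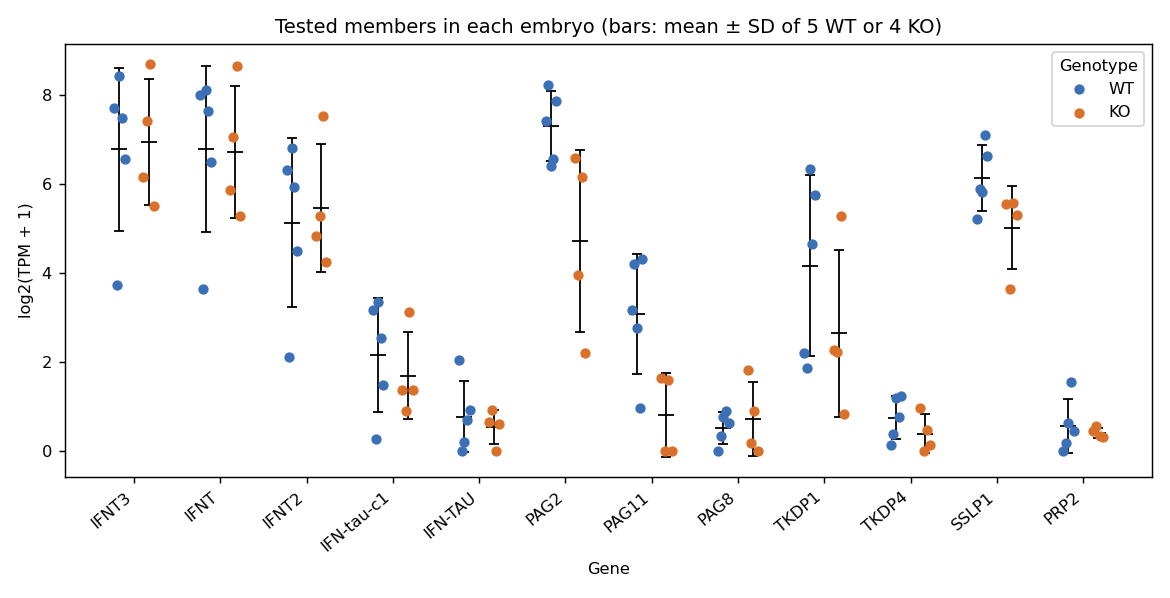
Each point is 1 embryo (blue WT, n = 5; orange KO, n = 4) on the log2(TPM + 1) scale for the 12 tested genes, with the mean and SD of each group. The ranges of the genotypes overlap in all 12 genes. For *PAG2*, 3 of 4 KO embryos lie below every WT embryo.

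*TKDP1* carried the Kunitz domain family and was the most variable of the 12 tested genes between WT embryos. It measured 3.63, 2.67, 79.3, 24.3 and 53.1 TPM from WT_1 through WT_5. The KO values, from TE_1 through TE_4, were 3.85, 3.67, 37.7 and 0.778 TPM. Values fell into a high range, in WT_3, WT_4, WT_5 and TE_3, and a range below 4 TPM, in WT_1, WT_2 and the other 3 KO embryos, so both genotypes had embryos in each. WT embryos averaged 32.6 ± 33.2 TPM (SD, n = 5) and KO embryos 11.5 ± 17.5 TPM (SD, n = 4) (log2 change -1.52, 95% interval -3.78 to 0.75, adjusted p = 0.924 from limma). The log2 change was -2.39 without TE_3 and -0.91 without TE_4. Its SD of log2(TPM + 1) between WT embryos, 2.03, was above that of 99.7% of all tested genes. *TKDP4* was at 0.112 to 1.37 TPM in WT and at most 0.958 TPM in KO embryos, with TE_2 at 0 (log2 change -0.35, 95% interval -0.95 to 0.25), and *TKDP2* reached 0.423 TPM in WT_4 and 0.387 TPM in TE_4.

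*SSLP1* was present in every embryo, and its mean was lower in KO blastocysts. It measured 36.3, 57.8, 55.6, 137 and 98.0 TPM from WT_1 through WT_5. The KO values, from TE_1 through TE_4, were 46.1, 11.4, 46.9 and 38.5 TPM. Of the 5 WT embryos, 4 were above every KO embryo, WT_1 lay below TE_1, TE_3 and TE_4, and TE_2 was lowest. WT embryos averaged 76.9 ± 40.3 TPM (SD, n = 5) and KO embryos 35.7 ± 16.6 TPM (SD, n = 4), which is a KO-minus-WT log2 difference of -1.11 (SE 0.46, 95% interval -2.12 to -0.098, adjusted p = 0.797 from limma), with p = 0.0952 in the exact permutation test (two-sided). The log2 change was -1.34 without WT_1, -1.21 without TE_4 and -0.65 without TE_2. In the fit without TE_2 the unadjusted p from limma was 0.124.

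Of the prolactin relatives, *PRP2* alone was found, at 0.138 to 1.95 TPM in 4 WT embryos, 0 in WT_1 and 0.243 to 0.482 TPM in the KO embryos (log2 change -0.15, 95% interval -0.75 to 0.45). *PRP1*, *PRP3*, *PRP4*, *PRP6*, *PRP8*, *PRP9*, *PRP14* and *CSH2* were listed at 0 in all 9 embryos. Prolactin itself (*PRL*) was above 0 in WT_5 alone, at 0.127 TPM.

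To see whether the families varied together, the most abundant gene of each family with a member averaging above 1 TPM was compared with those of the others across the 9 embryos, which makes 6 pairs. No relation between *IFNT3* and *PAG2* was detected: Pearson's r of log2(TPM + 1) came to -0.062 (p = 0.873 by a two-sided exact permutation test, 0.873 after adjustment over the 6 pairs) and Spearman's rho was -0.27 (p = 0.493, adjusted 0.740). Without WT_2 and TE_4, the embryos farthest from the median of *IFNT3*, r was -0.22. WT_2 held the least *IFNT3* of all embryos and the most *PAG2*, at 12.2 and 296 TPM. The closest relation was that of *IFNT3* and *TKDP1* (r = 0.62, exact permutation test, two-sided, p = 0.0730, adjusted 0.318; rho = 0.63, p = 0.0760, adjusted 0.388), which did not pass and became r = 0.41 without WT_2 and TE_4. *PAG2* and *SSLP1* gave r = 0.53 (exact permutation test, two-sided, p = 0.152, adjusted 0.318; rho = 0.48, p = 0.194, adjusted 0.388), which rested on TE_2 and TE_4, since r was 0.073 without them. The other 3 pairs had adjusted p-values of 0.318 or more in the same test, and with 5 and 4 embryos no relation was computed within a genotype. Each relation thus pools the genotypes, so a difference between their means enters it. *PAG2* and *SSLP1* both had the lower mean in KO.

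**Figure D5:**
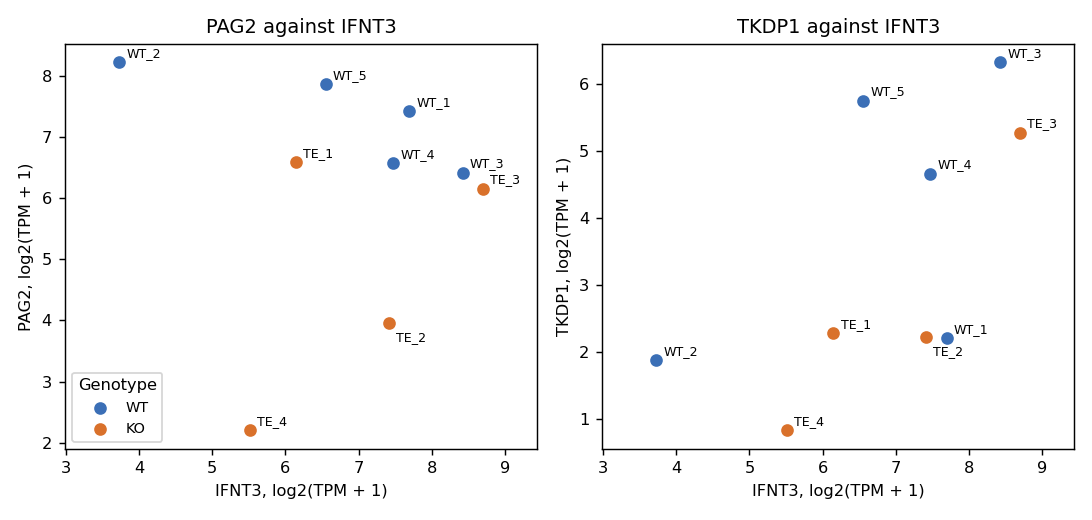
Each point is 1 embryo (blue WT, orange KO), with *IFNT3* on the horizontal axis and *PAG2* (left) or *TKDP1* (right) on the vertical axis, all as log2(TPM + 1). WT_2 lies at the lowest *IFNT3* and the highest *PAG2*, and TE_4 at the lowest *PAG2* and the lowest *TKDP1*.

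Factors known to act on interferon tau transcription made a list of 22 genes, 21 of which passed the filter and were tested. None had an adjusted p-value under 0.05, 12 had a lower and 9 a higher mean in KO, and the median log2 change was -0.066. *ETS2*, a main activator of the interferon tau promoter, averaged 6.58 ± 1.66 TPM (SD, n = 5) across WT and 8.29 ± 3.94 TPM (SD, n = 4) across KO embryos. *POU5F1*, which is known to restrain it, was the most abundant of the list, with averages of 1176 ± 373 TPM (SD, n = 5) across WT and 1709 ± 377 TPM (SD, n = 4) across KO embryos (log2 fold change 0.57, adjusted p = 0.836 from limma), followed by the trophectoderm factors *TFAP2C* (average 116 TPM for WT, 135 TPM for KO) and *GATA2* (67.2 and 69.0 TPM). Before adjustment, p was under 0.05 for *TFAP2A*, at 8.28 and 2.83 TPM on average (log2 change -1.34, adjusted p = 0.745 from limma), and *YAP1*, the cofactor of TEAD4, at 12.1 and 6.68 TPM (log2 change -0.81, adjusted p = 0.727 from limma). These are 2 of the 21 genes, both with a lower mean in KO, against 3.83% of all tested genes. *YAP1*, alone among the 21, was lower in every KO (4.71 to 9.76 TPM) than in every WT embryo (10.2 to 14.4 TPM). Of all tested genes, 1.23% were. Without TE_4 the log2 changes were -0.90 for *TFAP2A* (adjusted p = 0.848 from limma, no longer under 0.05 before adjustment) and -0.68 for *YAP1*. Of 16 other interferon genes, 7 were in the table, none passed the filter, and 4 were above 0 in any embryo. The highest of their values was 1.12 TPM, that of *IFNL3* in TE_4.

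A list of 23 other placental hormone and steroid genes held 14 tested genes, none with an adjusted p-value under 0.05, and their median log2 change was -0.090. An unadjusted p-value under 0.05 was found for 4 with a lower and 1 with a higher mean in KO, where 3.83% and 2.07% of all tested genes had one. *CYP11A1*, which begins steroid synthesis from cholesterol, measured 247, 90.9, 52.7, 116 and 139 TPM from WT_1 through WT_5, against 26.7, 7.22, 96.7 and 4.57 TPM from TE_1 through TE_4 (log2 change -2.61, SE 0.73, adjusted p = 0.566 from limma). The 2 embryos with the least *CYP11A1*, TE_2 and TE_4, are those with the least *PAG2*. *HSD3B1*, the enzyme that makes progesterone from pregnenolone, was at 105 to 220 TPM in WT embryos, at 227 TPM in TE_3 and 66.3 TPM in TE_2, and at 8.32 and 8.64 TPM in TE_1 and TE_4 (log2 change -2.10, SE 0.79, adjusted p = 0.753 from limma). Without TE_4 the log2 changes were -2.03 for *CYP11A1* and -1.49 for *HSD3B1* (for the latter, adjusted p = 0.851 from limma, no longer under 0.05 before adjustment). *CYP17A1*, the enzyme that leads on to androgens, averaged 16.1 TPM for WT and 33.9 TPM for KO.

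The other genes of that list with a low unadjusted p were hormones. *CGA*, the subunit shared by the glycoprotein hormones, was at 0.989 to 7.95 TPM in WT embryos, 0.439 TPM in TE_4 and listed at 0 in the other KO embryos (log2 change -1.65, adjusted p = 0.396 from limma). *STC2*, a stanniocalcin, was at 0.434 to 1.92 TPM in WT and at most 0.224 TPM in KO (log2 change -1.09, adjusted p = 0.330 from limma). Both were lower in every KO than in every WT embryo, as were 1.23% of all tested genes. Without TE_4 the log2 changes were -1.78 for *CGA* and -1.06 for *STC2*. *ADM*, which encodes adrenomedullin, had the higher mean in KO, at 5.65 and 22.6 TPM in WT and KO (log2 fold change 1.61, adjusted p = 0.745 from limma). Without TE_4 its log2 change was 1.11 (adjusted p = 0.851 from limma, no longer under 0.05 before adjustment).

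Of 32 other genes for secreted and surface proteins of the trophoblast, 26 were in the table and 22 were tested, with a median log2 fold change of -0.22 and none past the adjusted threshold. The most abundant were *PLAC8A* (average 2640 TPM for WT, 2760 TPM for KO), *BSG* (1351 and 1380 TPM), which encodes basigin, and the cathepsin *CTSL* (639 and 629 TPM). *PLAU*, the urokinase plasminogen activator, averaged 569 ± 398 TPM (SD, n = 5) across WT and 219 ± 227 TPM (SD, n = 4) across KO embryos (log2 change -1.72, adjusted p = 0.727 from limma). The cytokine *IL6* averaged 32.8 ± 28.0 TPM (SD, n = 5) across WT and 171 ± 84.8 TPM (SD, n = 4) across KO embryos (log2 fold change 2.50, adjusted p = 0.396 from limma). The paper, with DESeq2 on counts, reports *IL6* as upregulated in KO. Without TE_4 the log2 changes were -1.12 for *PLAU* (adjusted p = 0.842 from limma, no longer under 0.05 before adjustment) and 2.27 for *IL6*. These were the 1 lower and 1 higher of the 22 genes with an unadjusted p under 0.05, against 3.83% and 2.07% of all tested genes.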

How the data were processed

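Each of the 5 WT and 4 KO blastocysts gave 1 library. The deposited table holds TPM: per the labels, the authors used FastQC, fastp and kallisto, while versions, genome build and annotation are not given in the sources used here. The labels and the paper's methods name different RNA kits, library kits and sequencers. All 9 columns of values were used and assigned to a genotype by name. The paper's DESeq2 on counts was not run on TPM.

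Genes with a median above 0.1 TPM entered a limma fit (version 3.58.1, R 4.3.3; lmFit, trended eBayes) of log2(TPM + 1). A call needed a Benjamini-Hochberg adjusted p below 0.05 together with a log2 fold change beyond 1 in size. The fit was tested on simulated data. P-values set the difference between genotypes against the spread between embryos. Single genes were also compared by exact permutation over all divisions into 5 and 4 embryos. Family sums have no test. Other steps ran in Python 3.11.15 (numpy 2.4.6; pandas 2.3.3; scipy 1.17.1; figures, matplotlib 3.10.9).

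The members and lists were chosen with earlier results of these data known. Genes were named by a rule: members with a mean above 1 TPM (at most 6 per family), the highest member of other families, any with an unadjusted p-value under 0.05 or without overlap, and from each list those plus the 3 most abundant; further genes were named after their values were seen. RefSeq (ARS-UCD2.0) holds 36 of the 37 symbols; no coordinates or sequences are given.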

Additional observations from a re-analysis of the deposited data

Results flagged for a closer look

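*SSLP1* in TE_2 lay apart from the other KO embryos, at 11.4 TPM against 38.5 to 46.9 TPM in the other 3: on the log2(TPM + 1) scale its gap to the nearest embryo was 0.857 of the range of the 4 KO embryos, above Dixon's critical value for 4 samples. It was the only such embryo in 32 checks of a gene or family sum within a genotype, where chance gives about 1 in 20.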

How the results depend on the processing

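No member was called under any of 17 alternative fits: pseudocount 0.1 TPM, median-of-ratios size factors, quantile normalization, no filter or a median above 1 TPM, other moderation, array weights, and each embryo left out in turn. The direction held in all of them for *PAG2*, *PAG11*, *SSLP1* and *TKDP1* and in the 16 that tested *TKDP4*, and reversed in at least 1 for the other 7 tested genes. With array weights the log2 fold change was 0.46 for *IFNT* and 0.085 for *IFN-tau-c1*. With single embryos left out it ranged from -0.85 to 0.41 for *IFNT*, from -0.42 to 0.76 for *IFNT2*, from -0.59 to 0.64 for *IFNT3*, from -0.43 to 0.088 for *IFN-TAU*, from -0.16 to 0.45 for *PAG8* and from -0.29 to 0.097 for *PRP2*. The log2 fold changes of the 3 abundant interferon tau genes were lowest without WT_2. That embryo held the least of each, so leaving it out raised the WT mean. Why WT_2 was low was not tested. *PAG2* ranged from -3.19 to -1.73 and *PAG11* from -3.90 to -1.96, each with an unadjusted limma p-value under 0.05 in all 17 fits and adjusted values of 0.323 to 0.999 and 0.231 to 0.999. *SSLP1* had such a p-value in 12 fits. The exact permutation p of *PAG2* was 0.0635 with size factors and ranged from 0.0357 to 0.107 with 1 embryo left out, that of *PAG11* from 0.0286 to 0.107 and that of *SSLP1* from 0.0286 to 0.214. The list genes without TE_4 were computed after seeing the data. Over all genes tested, the 3 calls became 0 to 10 (10 without TE_3) with 1 embryo left out and 2 to 8 under the other alternatives. The number of members above 0 TPM, 19, became 17 above 0.1 TPM and 13 above 1 TPM. No paired analysis was possible because the genotypes share no replicate numbers. Adding rows listed by an Ensembl identifier was not run, since the RefSeq table used pairs no such identifiers. TPM keep no depth, so no counting error can be given for values near 0.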
